A study of Gallus gallus with 9 samples.

Results

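Endothelial cells line the blood vessels, and angioblasts are the mesodermal cells from which the first vessels assemble. Barcodes with RNA of genes that mark these cells were picked from droplet-based single-cell RNA sequencing of chick embryos by a rule on 7 marker genes, KDR, CDH5, EGFL7, FLI1, SOX18, LMO2 and TAL1. A member had at least 300 detected genes, at least 1 UMI (unique molecular identifier, 1 captured RNA molecule) of at least 2 of these genes, fewer than 10 UMIs summed over the globin genes HBA1, HBAD, HBZ, HBE and HBBR, and no UMI of the ectodermal genes SOX21 and DLX5. This gave 1202 members of 107749 barcodes, or 1.12% of the 107102 barcodes with at least 300 genes. Because the rule reads measured values, the levels of its own genes and the shares of members are descriptions and were not tested.

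The study followed pluripotency genes across the germ layers while the neural crest forms. All embryos were wild type and untreated. For the stages that the study's methods describe, each sample held all tissue at the level of the midbrain, pooled from several embryos. The groups were HH5 (Hamburger-Hamilton stage 5, late gastrulation), then 1ss, 4ss and 7ss, named by their number of somite pairs (1, 4 and 7), with 2 libraries per stage, and HH11 (stage 11) with 1 library. HH11 carries a protocol label of its own, its counts came from another release of the counting software, and the study's methods do not describe it, so stage and processing cannot be told apart there. Pools of embryos are not single animals, and p-values measure the spread between these pools. Where classes were compared over libraries of several stages, that spread also holds differences between stages.

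As background, the vascular endothelial growth factor receptor KDR is an early marker of the mesoderm that gives vessels and blood. LMO2 and TAL1 are partners in a transcription factor complex shared by blood and endothelial precursors, and FLI1 and SOX18 belong to the ETS and SOXF families that switch on vessel genes. CDH5, the cadherin of endothelial junctions, comes with differentiation, and EGFL7 is a secreted endothelial protein. The endocardium of the heart forms from the same precursors, close to the heart muscle.

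The libraries differed in depth and so did the members. The members of a library summed to between 14591 and 1934382 UMIs. They were deeper than the other barcodes of the same library, with median UMIs of 13138.5 in members and 2869 in other barcodes in 1ss replicate 1 as the widest gap. The median share of mitochondrial UMIs lay between 3.93% and 8.13% in members and between 2.93% and 10.8% in other barcodes. Between any 2 libraries 7 to 115 barcode sequences were shared over the 36 pairs of libraries, and 0 barcodes were members in 2 libraries. Simulated doublets marked between 1 and 34 members per library, and these members were kept.

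HH5 and 1ss gave few members. There were 48 and 4 members (HH5), 32 and 26 (1ss), 139 and 249 (4ss), 265 and 249 (7ss), and 190 (HH11). As shares of the barcodes with at least 300 genes, these were 0.374% and 0.0724% (HH5), 0.521% and 0.418% (1ss), 1.39% and 1.08% (4ss), 1.58% and 1.49% (7ss), and 1.95% (HH11). Barcodes with a UMI of SOX21 or DLX5, genes of ectoderm, served as background, since ectoderm should lack the markers. A single UMI does not settle the origin of a barcode, and that origin was not tested. The background was the share of these barcodes with at least 2 markers. It was 0.314% and 0.0776% (HH5), 0.688% and 0.309% (1ss), 0.940% and 0.954% (4ss), 0.891% and 0.809% (7ss), and 0.558% (HH11). Members were divided by all barcodes with at least 300 genes, including those with SOX21 or DLX5, which cannot be members. Their printed shares are thus lower than among the barcodes that could be members. Non-members without SOX21 or DLX5 and under the globin limit numbered 7042 and 4236 (HH5), 3638 and 3931 (1ss) and 17068 (4ss replicate 2). As printed, the shares in HH5 replicate 2 and 1ss replicate 1 lay at or below this background. Those in HH5 replicate 1, 1ss replicate 2 and 4ss replicate 2 lay within the exact intervals of the background, whose barcodes had median UMIs of 2299 to 7983. On a like denominator, where the shares of members would be higher, this comparison was not made. The printed shares thus do not show that the members of any library lay at background. The members of HH5 and 1ss are named by the rule below and not by a cell type. Endothelial genes outside the rule were mixed in them, as given below. TEK and CLDN5 had 0 UMIs, while CD34 and ENG were higher in members than in other barcodes of HH5 replicate 1 and both 1ss libraries.

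Depth was then set equal by thinning each barcode to 1000 UMIs at random and leaving out shallower ones, which removed 17.1% to 34.3% of the barcodes of a library. Thinned members made up 0.00940% (1 barcode) and 0.0822% (3 barcodes) (HH5), 0.123% and 0.231% (1ss), 0.961% and 0.764% (4ss), 1.02% and 1.04% (7ss), and 1.10% (HH11). The mean over the 2 libraries of a stage was 0.0458% ± 0.0515 (HH5), 0.177% ± 0.0764 (1ss), 0.862% ± 0.139 (4ss) and 1.03% ± 0.0151 (7ss) (SD, n = 2). Thinned background barcodes with at least 2 markers numbered 0 of 1550, 0 of 536, 0 of 766 and 1 of 764 at HH5 and 1ss, and between 1 and 3 per library at later stages, at most 0.166%. At these counts the exact upper limits of the background were 0.238% and 0.686% (HH5) and 0.480% and 0.727% (1ss). Each lay above the thinned share of members of its library. Each library of 4ss, 7ss and HH11 lay above every library of HH5 and 1ss at equal depth, and the neighbouring stages 4ss, 7ss and HH11 overlapped in their exact intervals. The dissected area and the cells that survive dissociation set these shares as well, and their part was not tested.

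**Figure D1:**
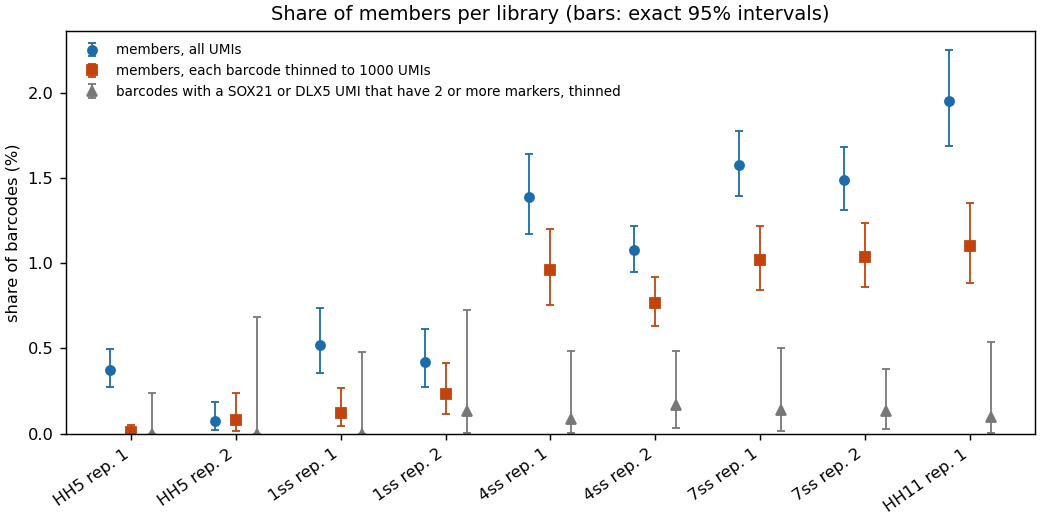
Share of barcodes (%) that met the rule in each of the 9 libraries, with all UMIs and after thinning to 1000 UMIs, beside the thinned share of barcodes with a SOX21 or DLX5 UMI that held at least 2 markers (bars: exact 95% Clopper-Pearson intervals, counting error only). After thinning, the libraries of 4ss, 7ss and HH11 lie between 0.764% and 1.10%, and those of HH5 and 1ss at or below 0.231%.

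The markers that admitted a member shifted with stage. LMO2 had a UMI in 50% and 75% of members (HH5), 68.8% and 65.4% (1ss), 89.2% and 88.4% (4ss), 93.2% and 92.0% (7ss), and 77.4% (HH11). KDR had a UMI in 68.8% to 75% of members at HH5 and 1ss and in 32.8% to 52.5% at later stages. CDH5 had a UMI in 0% to 3.12% of members at HH5 and 1ss, in 11.6% to 22.5% at 4ss and 7ss, and in 43.2% at HH11. The most frequent pair was KDR with LMO2 at HH5 and 1ss (38.2% of 110 members), LMO2 with TAL1 at 4ss and 7ss (62.6% of 902), and EGFL7 with LMO2 at HH11 (48.9% of 190). In barcodes with a SOX21 or DLX5 UMI, LMO2 had a UMI in 0.932% to 4.42% and CDH5 in 0% to 0.394%.

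The number of markers in a barcode separated members further. Exactly 2 markers were found in 77.3% of members at HH5 and 1ss (85 of 110), 47.7% at 4ss and 7ss (430 of 902), and 41.6% at HH11 (79 of 190). At least 4 markers were found in 6.36% (7 members), 31.5% (284) and 43.7% (83) of these groups. With this stricter count, members numbered 1, 1, 2 and 3 in the libraries of HH5 and 1ss, against 0, 0, 3 and 1 barcodes with a SOX21 or DLX5 UMI. They numbered 47 and 66 (4ss), 89 and 82 (7ss) and 83 (HH11), against 8, 8, 6, 5 and 3 such barcodes. The totals behind these counts differ. As shares of the barcodes with at least 300 genes, members made up 0.470% and 0.286% (4ss), 0.529% and 0.490% (7ss) and 0.853% (HH11). Of barcodes with a SOX21 or DLX5 UMI, 0.235%, 0.139%, 0.134%, 0.0809% and 0.0985% had at least 4 markers in these libraries. At 1ss the shares were 0.0326% and 0.0482% for members, against 0.121% and 0.0441% of such barcodes.

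A list of endothelial genes outside the rule checked what these barcodes hold. Of its 37 genes, 23 are in the files. Their summed level is given in CPM, the UMIs of a gene or list per 1000000 UMIs of the summed barcodes. Members with 2, 3 and at least 4 markers had 214, 301 and 710 CPM at HH5 and 1ss, 274, 332 and 990 CPM at 4ss and 7ss, and 596, 761 and 2369 CPM at HH11. Barcodes just outside the rule, with exactly 1 marker, had 107 to 355 CPM in the 9 libraries. Members with 2 markers were above these in each of the 8 libraries with at least 20 members, from 320 CPM against 306 CPM in 4ss replicate 1 to 596 CPM against 355 CPM at HH11. HH5 replicate 1 had 163 CPM against 107 CPM, 1ss replicate 2 had 387 CPM against 233 CPM, and 7ss replicate 1 had 279 CPM against 183 CPM. The value of 387 CPM rests on 16 barcodes and 50 UMIs. These sums include PODXL, a gene also made by many epithelia, whose part in each tier was not separated.

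**Figure D2:**
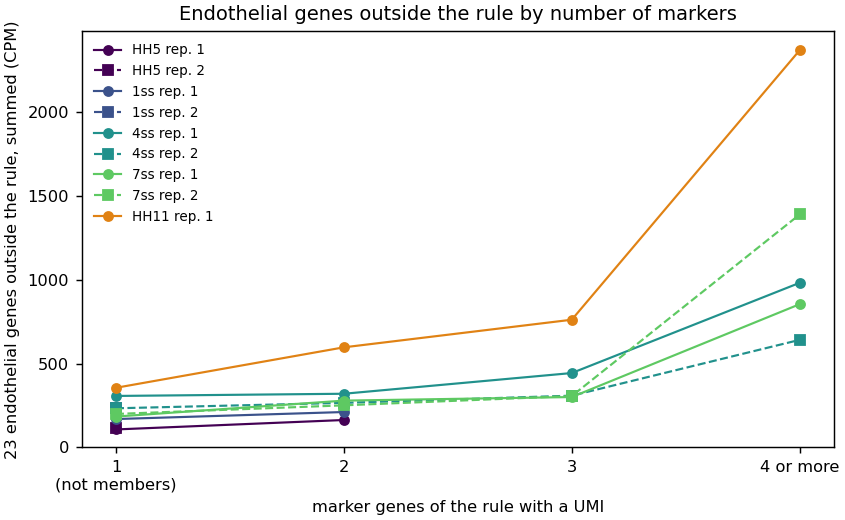
Summed level (CPM) of 23 endothelial genes outside the rule, by the number of marker genes with a UMI in a barcode, for each library with at least 20 barcodes in a tier. Levels in barcodes with 2 markers lie above those with 1 marker in each library plotted with both tiers (596 against 355 CPM at HH11). Those with at least 4 lie between 641 and 1389 CPM in the libraries of 4ss and 7ss (990 CPM when pooled, not drawn) and at 2369 CPM at HH11.

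The label endothelium and angioblasts was borne out by these genes only in part. Over all members, 8 and 2 of the 23 genes had a UMI (HH5), 10 and 10 (1ss), 17 and 20 (4ss), 20 and 20 (7ss), and 22 (HH11). The list summed to 175 and 274 CPM (HH5), 297 and 409 (1ss), 641 and 435 (4ss), 587 and 857 (7ss), and 1398 CPM (HH11) in members, against 124 to 275 CPM in other barcodes. PODXL alone gave 86.6 CPM of the sum in members of HH5 replicate 1 and 192 and 327 CPM at 1ss. It gave 230 and 144 CPM (4ss), 72.9 and 89.1 (7ss) and 267 CPM (HH11) in later members. The early sums thus rest largely on this gene. TEK, the angiopoietin receptor, had 0 UMIs in members of the 4 libraries of HH5 and 1ss, 22 and 10 UMIs (4ss), 33 and 54 (7ss) and 83 (HH11). CLDN5, a tight junction protein of endothelium, likewise had 0 UMIs in HH5 and 1ss members and between 8 and 43 UMIs per library later. TIE1, VWF, RASIP1 and CALCRL also had 0 UMIs in all members of HH5 and 1ss, which at these depths allows up to 7.02 CPM in HH5 replicate 1 and 6.95 and 13.6 CPM at 1ss.

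Genes of other tissues were high in the early members. The notochord and prechordal markers summed to 1558 CPM in members of HH5 replicate 1 against 208 CPM in other barcodes, to 802 CPM against 210 CPM in 1ss replicate 1, and to 309 CPM against 243 CPM in 1ss replicate 2. In the libraries of 4ss, 7ss and HH11 this list was at 35.3 to 161 CPM in members and 103 to 198 CPM in other barcodes. Cardiac markers summed to 554, 904 and 1283 CPM in members of HH5 replicate 1 and the 1ss libraries against 176, 160 and 248 CPM in other barcodes. For both lists, members lay above other barcodes in these 3 libraries. The 4 members of HH5 replicate 2 had 137 CPM of the notochord list (2 UMIs) against 272 CPM in other barcodes.

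Blood genes were seen unevenly. The list of haematopoietic and progenitor genes summed to 1318 and 936 CPM in members of the 4ss libraries, against 136 and 101 CPM in other barcodes, and it includes CD34 and HHEX, which endothelium also makes. RUNX1, the regulator of definitive blood stem cells, and SPI1, a myeloid regulator, had 0 UMIs in the members of every library. PTPRC, the pan-leukocyte antigen CD45, had between 0 and 2 UMIs per library.

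Clusters of the 1202 members, made from genes outside the rule, described how they vary among themselves. There were 9 clusters. Their leading genes are the 10 with the largest fold over the other members, so genes that members share do not lead a cluster. They are given as descriptions. Cluster 5 held 90 members, 82 of them from the 7ss libraries (41 each), and all had at least 4 markers. It was led by MRC1, a scavenger receptor of sinusoidal and lymphatic endothelium, APLN, the apelin ligand, and MYCT1, and FLT4, the VEGF-C receptor, was also among its 10 leading genes. Its endothelial list was at 1506 CPM, and it is called endothelial-like. Cluster 6 held 80 members, 78 of them from HH11, and was also endothelial-like, with 3034 CPM of the list and RAMP2, TFPI2, PECAM1, TEK and the arterial connexin GJA5 among its leading genes.

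Other clusters of members were led by genes of other tissues. Cluster 7 (76 members) held 34 of the 48 members of HH5 replicate 1 and was led by POMC, the BMP inhibitor CHRD and the liver and endoderm genes TTR and FGB, with TBXT among the 10, and none of its members had 4 markers. Cluster 2 (184 members) held 126 of the 139 members of 4ss replicate 1 and 22 and 21 members of the 1ss libraries, and was led by the cardiac genes NKX2-5, GATA5 and TNNT2. Cluster 8 (70 members) held 56 members of 4ss replicate 2 and was led by the muscle genes ACTA2, MYL2 and TNNT2. Cluster 3 (103 members, mostly 7ss) was led by AKAP12 and TBX22, and cluster 4 (94 members, all HH11) by DCN and VEGFD, with COL1A1 among the 10. Cluster 9 (37 members) was led by HES5 and TFAP2B, genes of neural tissue and neural crest. Cluster 1, the largest with 468 members and a median of 1486.5 UMIs, had no marker of any list among its leading genes and stays unnamed. A list of endothelial transcription factors, described below, was at 1889 CPM in cluster 1 and 1710 CPM in cluster 2. It ranged from 397 CPM (cluster 9) to 2743 CPM (cluster 5). The endothelial list was at 440 and 569 CPM in clusters 1 and 2, so leading genes alone do not set these members apart from endothelium. This level was not particular to them, with 479 and 550 CPM in clusters 4 and 8. Clusters 3, 7 and 9 had 233, 143 and 219 CPM. The part of PODXL in these sums was not separated.

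The 2 libraries of 4ss fell apart in these clusters. Members of 4ss replicate 1 lay mostly in cluster 2 beside those of 1ss, and members of 4ss replicate 2 mostly in cluster 1 (164 of 249) beside those of 7ss. No cluster was compared between stages, since clusters follow libraries.

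**Figure D3:**
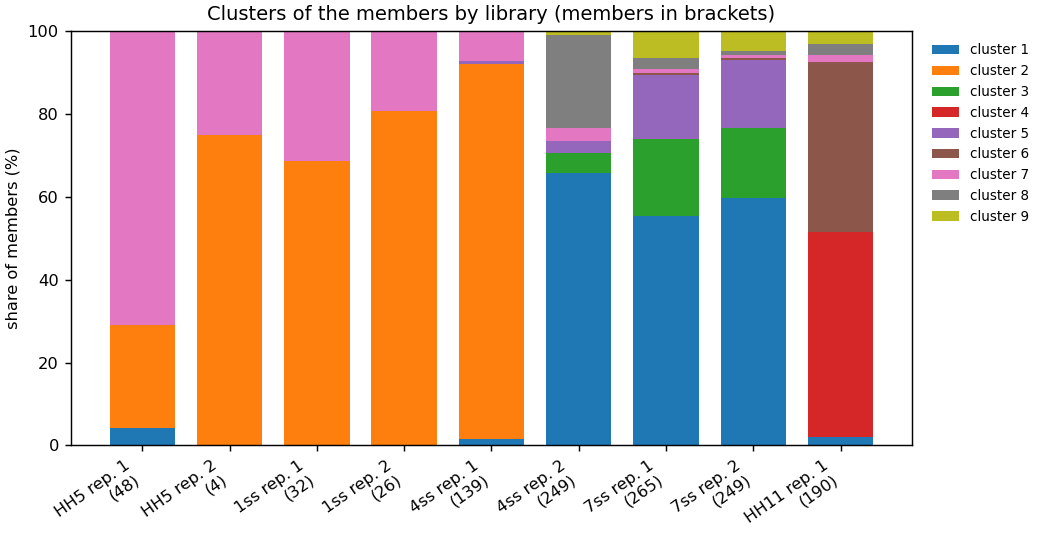
Share of the members of each library (%, number of members in brackets) in the 9 clusters of members. Cluster 5 is found mainly at 7ss and cluster 6 at HH11, cluster 7 holds 34 of 48 members of HH5 replicate 1, and the 4ss libraries differ from each other.

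Members were then compared with the other barcodes of the same library, to describe what RNA goes with the markers. UMIs were summed per library and class, since barcodes of a library share their source, and the 8 libraries with at least 20 members were tested with edgeR's quasi-likelihood test with the library as a block and Benjamini-Hochberg adjustment. HH5 replicate 2, with 4 members, was left out of every test. Of 10791 genes tested outside the rule, 3169 (29.4%) passed an adjusted p of 0.05, of which 1450 (13.4%) were higher and 1719 (15.9%) lower in members. The choice of members acts here too: genes that vary with the 7 markers, with SOX21 and DLX5 or with depth differ in part because barcodes were chosen by them, so these tests describe the chosen barcodes.

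Endothelial genes outside the rule rose in members. Of the 23 genes in the files, 13 passed the low-count filter, and 12 of these rose and 0 fell (median log2 change 2.24, against -0.04 over all genes tested). A gene can pass the filter through the members alone, so the 13 are not all genes of the list. CD34, a sialomucin of endothelium and blood progenitors, averaged 63.6 ± 62.6 CPM in members and 0.918 ± 0.519 CPM in other barcodes (SD, n = 8), a log2 change of 5.94 ± 0.277 (SE, edgeR adjusted p = 1.2e-10), higher in 8 of 8 libraries. ENG, the TGF-beta co-receptor endoglin, rose by 4.76 ± 0.215 (edgeR adjusted p = 1.08e-10), also in 8 of 8. ERG, an ETS factor that maintains endothelial identity, rose by 4.54 ± 0.323 and was higher in 7 of 8 libraries. RAMP2, a partner of the adrenomedullin receptor, rose by 4.14 ± 0.637 but was higher in 5 of 8.

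The 5 endothelial genes with the highest mean level in members show where this rise lies. CD34 had 4.68 CPM in HH5 replicate 1, 18.5 and 9.10 (1ss), 65.2 and 38.1 (4ss), 54.8 and 162 (7ss), and 157 CPM (HH11) in members, against 0.364 to 1.97 CPM in other barcodes. ENG had 14 CPM in HH5 replicate 1, 34.8 and 9.10 (1ss), 64.1 and 33.5 (4ss), 63.1 and 81.7 (7ss) and 102 CPM (HH11) in members, against 0.981 to 3.05 CPM in other barcodes. For these 2 genes members of each of the 8 libraries lay above the other barcodes of all of them, although only 2 to 15 UMIs stand behind each early value. ERG had 1 UMI in members of HH5 replicate 1 and 0 and 1 UMIs (1ss), but 43.1 and 44.9 CPM (4ss), 78.1 and 66.4 (7ss), and 76.8 CPM (HH11), against 0.245 to 5.33 CPM in other barcodes.

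S1PR1, the sphingosine-1-phosphate receptor that steadies vessels, separated by stage. It had 9.36 CPM in HH5 replicate 1 and 11.6 and 4.55 CPM at 1ss in members, against 9.35, 20.8 and 22.6 CPM in other barcodes of these libraries. It had 90.7 and 34.3 CPM (4ss), 87.4 and 106 (7ss) and 87.2 CPM (HH11) in members, against 12.3 to 23.9 CPM in other barcodes. PODXL, a sialomucin also made by many epithelia, had 72.9 to 327 CPM in members and 71.7 to 186 CPM in other barcodes. PODXL was thus the most abundant of the 5 and the least distinct, and at 7ss it was lower in members (72.9 and 89.1 CPM) than in other barcodes (83.8 and 108 CPM).

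**Figure D4:**
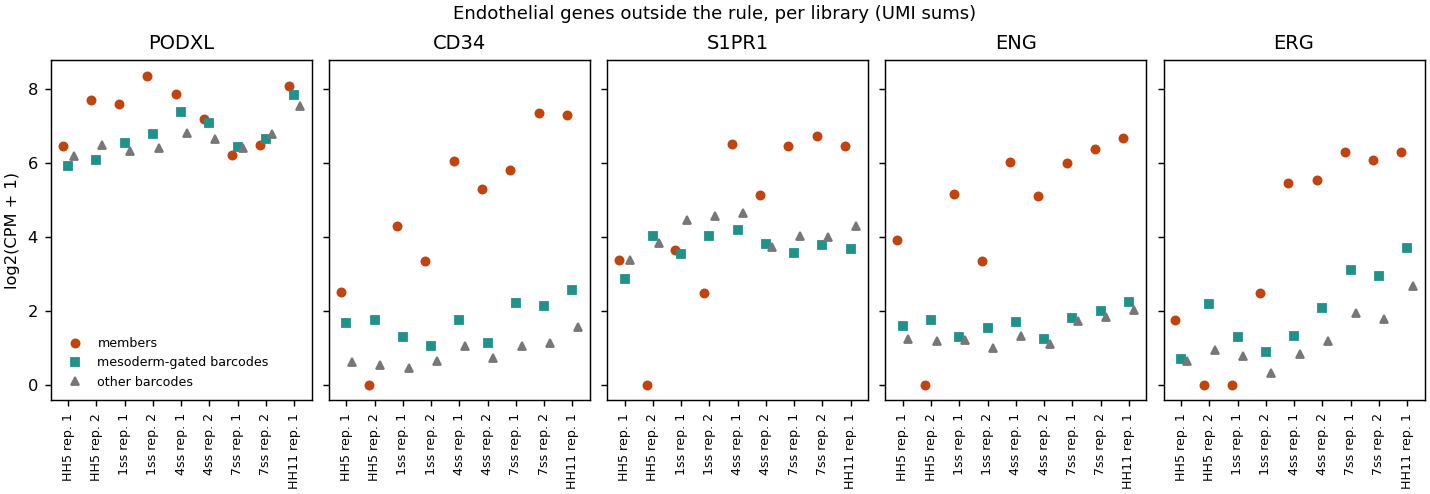
Level, as log2(CPM + 1), of the 5 endothelial genes outside the rule with the highest mean level, in members, mesoderm-gated barcodes and other barcodes of each library. CD34 and ENG stand above both other classes in each of the 8 libraries with at least 20 members. ERG does so in each library from 4ss on, S1PR1 is higher in members from 4ss on, and PODXL overlaps between classes.

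The list of endothelial transcription factors holds ETS and SOXF factors and further ones such as GATA2, HHEX, KLF2, MEF2C and FOXO1. Of its 13 tested genes 12 rose and 0 fell (median 2.69), these 5 among them. HHEX, a homeobox factor of early endothelium and endoderm, had 211 CPM in HH5 replicate 1, 204 and 146 (1ss), 1078 and 823 (4ss), 864 and 737 (7ss) and 340 CPM (HH11) in members, against 127 CPM in HH5 replicate 1 and 4.36 to 75.6 CPM in the later libraries in other barcodes. HHEX rose by 4.01 ± 0.623 on the log2 scale (edgeR adjusted p = 0.000115). ETS1 had 30.4 CPM in HH5 replicate 1 and 226 to 581 CPM in the later libraries in members, against 12.5 to 46.0 CPM in other barcodes, and rose by 3.25 ± 0.252. KLF2, which responds to blood flow, rose by 3.65 ± 0.433 and FOXO1 by 3.40 ± 0.448, both higher in 7 of 8 libraries.

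In the VEGF pathway, 3 receptors and 1 adaptor rose and the other tested genes did not pass. Of 14 tested genes, 4 rose and 0 fell (median 0.33). FLT1, the decoy VEGF receptor, had 9.36 CPM in HH5 replicate 1, 9.27 and 9.10 (1ss), 54.2 and 70.8 (4ss), 42.4 and 73.1 (7ss), and 71.6 CPM (HH11) in members, against 0.336 to 1.35 CPM in other barcodes. It had the largest rise of the named genes, 5.999 ± 0.359. FLT4 rose by 3.84 ± 0.348 and the co-receptor NRP1 by 2.45 ± 0.112. The adaptor NCK1 rose by 0.45 ± 0.130 over all libraries but not in the early ones, where its log2 change was -0.008.

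In the angiopoietin and apelin list 3 of 4 tested genes rose. APLN, the ligand made by sprouting tips, had 9.36 CPM in HH5 replicate 1, 25.5 and 18.2 (1ss), 67.5 and 39.6 (4ss), 196 and 344 (7ss), and 58.1 CPM (HH11) in members, against 4.66 to 8.98 CPM in other barcodes. Its receptor APLNR rose by 3.04 ± 0.250 and ANGPT2, a TEK antagonist, by 1.47 ± 0.368. In members of 7ss APLN thus stood at the head of all stages, with both libraries above the rest.

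Notch and BMP genes split. In the Notch list, 4 genes rose and 1 fell of 11: the ligand JAG2 (1.44 ± 0.361), the Fringe enzyme LFNG (1.15 ± 0.131) and HEYL (1.09 ± 0.326) rose, and the ligand DLL1 fell (-1.78 ± 0.335). In the list of BMP and TGF-beta genes, 5 rose and 2 fell of 14, with TGFBR2 (3.22 ± 0.297) and the inhibitor SMAD6 (1.68 ± 0.112) among the rises and BMP4 (-0.60 ± 0.220) among the falls. Of the arterial markers 3 of 9 rose, namely the connexin GJA4 (3.52 ± 0.504), NRP1 and SOX17 (2.40 ± 0.382). Of the venous and lymphatic markers 3 of 5 rose, namely FLT4, APLNR and STAB1 (2.24 ± 0.459). STAB1, a scavenger receptor, was lower in members in the early libraries (log2 change -1.36).

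Few genes of the blood lists passed the filter, and 3 of the 4 haematopoietic genes that rose stand on other lists too, CD34 on the endothelial one and HHEX and GATA2 on that of transcription factors. Of 8 tested haematopoietic genes, 4 rose and 0 fell, namely CD34, HHEX, the precursor factor GATA2 (1.79 ± 0.294) and the corepressor CBFA2T3 (1.79 ± 0.281). Of 4 tested erythroid genes outside the globins, CA2, a carbonic anhydrase abundant in red cells, was the 1 that rose (4.27 ± 0.815). CA2 had 23.4 CPM in HH5 replicate 1, 18.5 and 27.3 (1ss), 168 and 127 (4ss), 666 and 685 (7ss), and 1002 CPM (HH11) in members. In other barcodes CA2 had 74.7 CPM in HH5 replicate 1, 23.2 and 24.2 at 1ss and 5.80 to 11.0 CPM later, so that members were lower in HH5 replicate 1 and 1ss replicate 1 and higher in 1ss replicate 2 and each later library. Fitted over the 3 early libraries, the log2 change was -0.97. The rule keeps barcodes with up to 9 globin UMIs, and between 3 and 43 members per library with at least 20 members had a globin UMI.

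The metallothionein MT4 was the most abundant of the named rises. MT4, a small metal-binding protein, had 173 CPM in HH5 replicate 1, 959 and 4112 (1ss), 2379 and 5110 (4ss), 4315 and 4394 (7ss), and 317 CPM (HH11) in members. Other barcodes of these 8 libraries had 46.6 to 167 CPM of MT4. The groups did not overlap over these 8 libraries but came close at HH5, where members were at 173 CPM and other barcodes at 167 CPM, and MT4 rose by 4.29 ± 0.513 on the log2 scale (edgeR adjusted p = 7.64e-06). Metallothionein genes are close copies, and how the counting split their reads was not tested. Further named rises in 8 of 8 libraries were PMP22, a membrane protein (3.88 ± 0.236), HAPLN3, a hyaluronan link protein (3.47 ± 0.302), the small GTPase regulator ARAP3 (4.41 ± 0.395), and RGS3 and RGS2, which dampen G protein signals (3.40 ± 0.236 and 3.39 ± 0.280).

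Matrix and adhesion genes moved less. Of 13 tested basement membrane and matrix genes 8 rose and 1 fell (median 0.46). The laminin chain LAMA4 of endothelial basement membrane rose by 1.94 ± 0.291, FBN1 by 1.25 ± 0.264, the perlecan gene HSPG2 by 0.97 ± 0.318 and SPARC by 0.89 ± 0.112. Of 14 adhesion genes 6 rose and 2 fell, with ITGA9 (1.42 ± 0.179) and ITGB5 (1.42 ± 0.178) among the rises. CDH1, the epithelial cadherin, fell (-1.59 ± 0.196), as did JAM2 (-2.24 ± 0.254).

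Most neural genes fell. Of 14 tested neural markers 13 fell and 0 rose (median -3.33). The neural factor SOX1 averaged 1.24 ± 1.34 CPM in members and 21.8 ± 8.78 CPM in other barcodes (SD, n = 8), and HES5, a Notch target of neural progenitors, 10.2 ± 13.2 and 133 ± 57.1 CPM. SOX2 fell by 3.65 on the log2 scale, PAX6 by 3.48, FEZF2 by 3.54 and OTX2, the forebrain and midbrain factor, by 2.55. The rule excludes barcodes with SOX21 or DLX5, which are neural and ectodermal genes themselves. Against other barcodes that also lacked both genes, the log2 changes were -2.81 for SOX2, -2.20 for HES5 and -2.15 for OTX2, each still past the threshold of edgeR's test. Of 11 non-neural ectoderm markers 7 fell and 2 rose, with CLDN1 (-1.996 ± 0.153) and TFAP2A (-2.56 ± 0.217) among the falls, and of 11 neural crest markers 4 fell and 1, ETS1, rose.

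Genes of tissues that neighbour the vessels rose as well. Of 12 cardiac markers 11 rose and 0 fell (median 1.54), among them GATA6 (2.05 ± 0.173), the troponin gene TNNT2 (1.94 ± 0.223), TBX5 (2.20 ± 0.464) and MEF2C (1.84 ± 0.313), of which MEF2C is also a factor of endothelium. Of 11 mesoderm and mesenchyme markers 7 rose and 0 fell (median 0.94), with TCF15 (1.60 ± 0.2005), PRRX1 (1.28 ± 0.149) and OLFML3 (1.25 ± 0.0883). Of 9 endoderm markers 3 rose and 1 fell, SOX17, LCAT (1.89 ± 0.465) and APOA1 (0.81 ± 0.155) against CLDN3 (-1.53 ± 0.228). Of 8 notochord and prechordal markers TBXT, the notochord factor brachyury, rose (1.16 ± 0.373) and LMX1B fell (-1.90 ± 0.275), but TBXT was lower in members with at least 3 markers (-0.33) or at least 4 (-0.30). LCAT was lower in members in the early libraries (-0.20). With members and other barcodes of like depth, 2 of 9 endoderm markers rose and 3 fell (median -0.04). At like depth 11 of 12 cardiac and 6 of 10 mesoderm and mesenchyme markers rose and 0 fell. In this fit 1180 of 10227 genes tested were higher in members and 1574 were lower. The part of other cells' RNA in these lists was not tested.

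Of 12 proliferation genes 7 fell and 0 rose (median -0.27). The changes of the replication helicase genes were small, -0.66 ± 0.0983 for MCM3, -0.46 ± 0.0642 for MCM5, -0.41 ± 0.0787 for MCM6 and -0.36 ± 0.0842 for MCM2. MCM3 averaged 36.0 ± 11.3 CPM in members and 53.0 ± 14.4 CPM in other barcodes (SD, n = 8), and was lower in members in 8 of 8 libraries.

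The early and the later libraries gave different pictures, in fits chosen after seeing the data. With HH5 replicate 1 and the 1ss libraries alone, 865 of 10736 genes (8.06%) were called, 363 higher (3.38%) and 502 lower (4.68%). There 3 of 12 tested endothelial genes rose (median 0.81), against 10 of 12 cardiac markers (median 2.32), 5 of 11 mesoderm markers (median 1.55) and 5 of 8 notochord markers (median 2.06). Endothelial transcription factors rose in 5 of 13 (median 1.30) and VEGF pathway genes in 4 of 13 (median 1.42). Angiopoietin and apelin genes rose in 2 of 5 (median 1.39) and haematopoietic genes in 3 of 8 (median 0.37). In these 4 lists 0 genes fell. With the libraries of 4ss, 7ss and HH11, 3302 of 11258 genes (29.3%) were called, 1584 higher (14.1%) and 1718 lower (15.3%). There 16 of 20 tested endothelial genes rose and 1 fell (median 3.88), 12 of 13 endothelial transcription factors rose (median 2.95), 6 of 11 cardiac markers rose and 1 fell (median 1.13), and 4 of 8 notochord markers fell (median -0.90). In these later libraries VEGF pathway genes rose in 5 of 14 (median 0.38), angiopoietin and apelin genes in 5 of 7 (median 2.77) and haematopoietic genes in 4 of 8 (median 1.32). The difference between these 2 sets of libraries was not itself tested.

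With at least 4 markers, which left 5 libraries of 4ss, 7ss and HH11, fewer markers of other tissues were higher in members. There 3485 of 11040 genes (31.6%) were called, 1544 higher (14%) and 1941 lower (17.6%), and 16 of 20 endothelial genes rose and 1 fell (median 4.64). Mesoderm markers then rose in 2 of 11 and fell in 1 (median 0.04), notochord markers fell in 6 of 8 (median -2.43), and neural crest markers fell in 9 of 13. Cardiac markers still rose in 4 of 11 and fell in 1 (median 0.71). FLT1 rose by 7.30 and HHEX by 5.97 in this set, against 6.46 and 5.25 with at least 2 markers in the same 5 libraries.

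**Figure D5:**
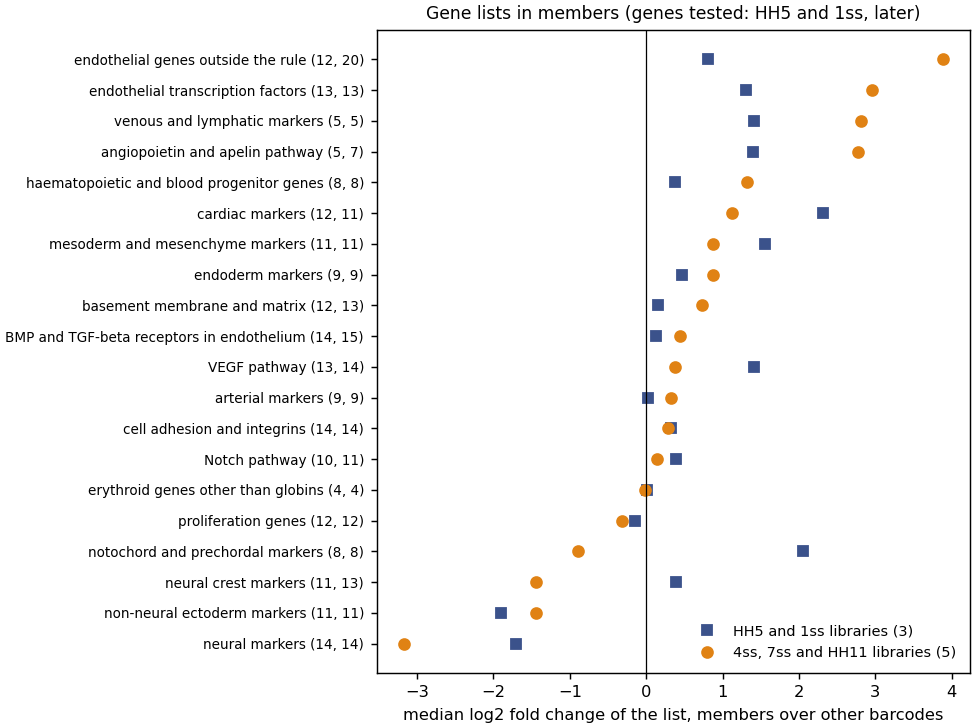
Median log2 change of each gene list, members over other barcodes, in the 3 libraries of HH5 and 1ss and the 5 libraries of 4ss, 7ss and HH11 (numbers of genes tested in brackets). Endothelial genes have a median of 3.88 in the later libraries and 0.81 in the early ones, and notochord and prechordal markers change sign, at 2.06 early and -0.90 later.

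Mesoderm is the tissue from which angioblasts arise, so members were next set against mesoderm-gated barcodes, 8547 non-members with a UMI of at least 2 of 5 mesoderm genes, among them TWIST1, PRRX1, TBX1 and TCF15, under the same exclusions of SOX21, DLX5 and globin. Of 8623 genes tested with edgeR, 1356 (15.7%) were called, 730 higher (8.47%) and 626 lower (7.26%) in members. Of 9 tested endothelial genes 7 rose and 0 fell (median 2.37), and of 13 endothelial transcription factors 10 rose (median 2.13). CD34 averaged 63.6 ± 62.6 CPM in members and 2.50 ± 1.35 CPM in mesoderm-gated barcodes (SD, n = 8), a log2 change of 4.61 ± 0.254. ERG rose by 3.35 ± 0.232, ENG by 4.51 ± 0.1997, and SHE, an adaptor protein of endothelium, by 3.03 ± 0.338.

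Some signalling genes also parted members from mesoderm. Of 11 tested VEGF pathway genes 3 rose and 0 fell (median -0.08). Of 9 tested Notch genes 4 rose and 2, JAG1 and NOTCH2, fell (median -0.10). FLT1 rose by 5.16 ± 0.389, FLT4 by 4.01 ± 0.307 and NRP1 by 1.17 ± 0.120. NOTCH1 averaged 84.0 ± 41.5 CPM in members and 27.4 ± 15.7 CPM in mesoderm-gated barcodes (SD, n = 8) and was higher in 8 of 8 libraries (1.58 ± 0.104, edgeR adjusted p = 1.27e-08). JAG2 (1.53 ± 0.330) and LFNG (1.37 ± 0.145) rose and JAG1 fell (-1.16 ± 0.264), so that the ligands moved in opposite directions. Of 7 tested arterial markers 3 rose, the chemokine receptor CXCR4 (1.02 ± 0.155), SOX17 (2.20 ± 0.251) and NRP1, and 1, JAG1, fell. Of 5 tested venous and lymphatic markers 3 rose, FLT4, STAB1 and APLNR, and 1, the vein-specifying nuclear receptor NR2F2, fell (-0.86 ± 0.142, lower in 8 of 8 libraries). The integrin genes ITGB3 (2.03 ± 0.298), ITGB5 (1.09 ± 0.178), ITGA6 and ITGAV rose, and of the matrix genes LAMA5 (1.54 ± 0.280) and FN1 (0.71 ± 0.136).

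Several mesenchyme genes outside the gate fell. The comparator was chosen by UMIs of mesoderm genes, so genes that vary with them are higher there in part by construction, and these falls describe the 2 gated sets. ALX1, a factor of head mesenchyme, averaged 20.7 ± 25.6 CPM in members and 118 ± 101 CPM in mesoderm-gated barcodes (SD, n = 8) and fell by 2.28 on the log2 scale. TBX22 fell by 1.36 on the log2 scale, the Wnt receptor FZD2 by 1.30 and the netrin receptor UNC5C by 1.13, each lower in 8 of 8 libraries. Of 6 tested mesoderm and mesenchyme markers 4 fell and 0 rose, among them PRRX2 (-1.64 ± 0.346) and MEOX1 (-1.13 ± 0.165). Of 12 cardiac markers 1 rose (GATA6, 0.55 ± 0.137) and 1 fell (ACTC1, -1.47 ± 0.213), and of 8 notochord markers 0 passed (median 0.28). Of 12 proliferation genes 6 fell. In HH5 replicate 1 and the 1ss libraries alone 217 of 8291 genes (2.62%) were called, 139 higher (1.68%) and 78 lower (0.941%), with 3 of 7 endothelial genes and 6 of 8 notochord markers higher, while in the later libraries 1727 of 8846 (19.5%) were called, 961 higher (10.9%) and 766 lower (8.66%), with 12 of 15 endothelial genes higher and 5 of 7 notochord markers lower. Without 7ss replicate 2 the number of called genes was 849 in place of 1356.

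Stages of members were compared with HH5 over 7 libraries. HH5 had 1 usable library, so its spread was taken from the other stages, and HH11, with 1 library and its own protocol, entered as values only. The HH5 members are also the ones in which 1558 CPM of notochord markers were measured, so a fall against HH5 cannot be told apart from a smaller share of such barcodes. Fewer cells of a type and less RNA per cell cannot be told apart either in these sums. In the clusters, members of 4ss replicate 1 lay mostly beside those of 1ss, and members of 4ss replicate 2 mostly beside those of 7ss. The part of this grouping of libraries in the stage contrasts was not tested.

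At 1ss against HH5, 2 of 7723 genes (0.0259%) passed edgeR's test, with 645 at an unadjusted p under 0.05, and DESeq2 called 5. Of these, 1 gene rose (0.0129%) and 1 fell (0.0129%). RBPMS2, an RNA-binding protein of heart and smooth muscle, averaged 199 CPM at 1ss and had 21.1 CPM at HH5 (log2 change 3.19 ± 0.504, edgeR adjusted p = 0.0317). CSRP2, a LIM-domain protein, averaged 12.6 CPM at 1ss and had 136 CPM at HH5 (-3.48 ± 0.540, edgeR adjusted p = 0.0317).

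At 4ss against HH5, 64 genes (0.829%) were called, 32 higher (0.414%) and 32 lower (0.414%). Members of 4ss had 155 UMIs of RASGRP3, a Ras activator downstream of VEGF receptors, against 0 UMIs at HH5. Set against 3 UMIs over the HH5 members, this was at least 9.96-fold higher, and DIPK2B (138 UMIs against 0) was at least 8.87-fold higher. ETS1 rose by 3.73 ± 0.567, ERG by 4.204 ± 0.894 and HHEX by 2.20 ± 0.353. Of 14 tested endothelial genes ERG was the 1 that rose and 0 fell. A gene can pass the filter through the later stages alone, and one at 0 UMIs in HH5 members could not fall. The absence of falls is thus not a result. Notochord genes TBXT (-3.89 ± 0.5005), CHRD (-3.60 ± 0.373) and FOXA2 (-2.46 ± 0.531) fell, and the arterial ligand EFNB2 fell (-3.34 ± 0.634). ACTA2, the smooth muscle actin (5.08 ± 0.817), and NKX2-5 (3.38 ± 0.693), a factor of heart precursors, rose.

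At 7ss against HH5, 231 genes (2.99%) were called, 101 higher (1.31%) and 130 lower (1.68%). Of 14 tested endothelial genes 5 rose and 0 fell, but those at 0 UMIs in HH5 members, MYCT1 and STAB1 among them, could not fall. CD34 had 54.8 and 162 CPM at 7ss and 4.68 CPM (2 UMIs) at HH5, a log2 change of 4.47 ± 0.924 (edgeR adjusted p = 0.0123). ERG rose by 4.87 ± 0.844. MYCT1, an endothelial membrane protein, had 236 UMIs at 7ss against 0 at HH5, at least 9.44-fold higher, MRC1 had 223 against 0, at least 8.92-fold higher, and STAB1 had 82 against 0, at least 3.28-fold higher. RASGRP3 was at least 19.5-fold higher and DIPK2B at least 20.2-fold higher. TFPI, the inhibitor of tissue factor on endothelium, had 190 UMIs against 0, at least 7.60-fold higher.

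Some signalling genes changed with them at 7ss. Of the tested genes, 1 of 11 in the VEGF pathway, 1 of 5 in the angiopoietin and apelin list and 2 of 8 in the Notch list rose. APLN rose by 4.81 ± 0.619 (edgeR adjusted p = 0.000261), FLT1 by 2.59 ± 0.658, NOTCH1 by 1.88 ± 0.469 and LFNG by 2.45 ± 0.545. NR2F2 had 159 UMIs at 7ss and 0 at HH5, at least 6.36-fold higher, and EFNB2 fell (-3.68 ± 0.612). CA2 rose by 4.83 ± 0.437 and SPARC by 1.66 ± 0.363. Falls included genes of the notochord and endoderm lists. Of 8 notochord and prechordal markers 6 fell, with CHRD at 18.6 and 28.9 CPM at 7ss against 983 CPM at HH5, and of 7 tested endoderm markers 5 fell, SOX17 among them, at 3.62 and 7.99 CPM at 7ss against 239 CPM at HH5. The posterior factor CDX4 had 0 UMIs at 7ss against 28 at HH5, at least 77.8-fold lower, and GATA4 had 0 against 9, at least 25.0-fold lower.

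The stage counts depended on single libraries. The 1ss contrast called 0 genes without 1ss replicate 1, 7ss replicate 1 or 7ss replicate 2, 1 without 1ss replicate 2, and 99 or 111 without 4ss replicate 1 or replicate 2. The 4ss contrast called 27 or 28 genes without 7ss replicate 2 or replicate 1, 37 or 38 without 1ss replicate 1 or replicate 2, and 211 or 213 without 4ss replicate 1 or replicate 2. Without 7ss replicate 2 or 7ss replicate 1, the 7ss contrast called 52 or 81 genes, and without 4ss replicate 1 or 4ss replicate 2 it called 604 or 630, and without 1ss replicate 1 or replicate 2 it called 142 or 143. Without doublets, barcodes over 4000 genes and barcodes over 40% mitochondrial UMIs it called 135, and DESeq2 called 112.

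The last comparison asked whether members and the other barcodes of their libraries changed alike between HH5 and 7ss. Of 12764 genes, 336 (2.63%) had a stage change that differed between the classes by edgeR's test, 218 more upward in members (1.71%) and 118 more downward (0.924%). Scaling by library size alone gave 321 genes, 176 upward and 145 downward, with a median difference over all genes of 0.10 in place of 0.20, so that single values below are to be read against a shift of 0.20. Of 22 tested endothelial genes 6 rose more in members and 0 less. Genes at 0 UMIs in HH5 members, CLDN5 among them, could not fall in members, so the absence of such genes is not a result. SHE had 45.0 CPM on average in 7ss members against 7.02 CPM at HH5, while other barcodes had 3.07 CPM at 7ss and 5.71 CPM at HH5, a difference of log2 changes of 3.59 ± 0.762. CLDN5 had 73 UMIs in 7ss members against 0 at HH5, at least 2.92-fold higher, while other barcodes had 0.266 CPM at 7ss and 1.0095 CPM at HH5. HHEX had 801 CPM in 7ss members against 211 CPM at HH5, while in other barcodes it had 8.13 CPM at 7ss against 127 CPM at HH5, a difference of 5.996 ± 0.173.

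GATA2 (3.94 ± 0.387), ELK3 (2.65 ± 0.394), FLT1 (3.12 ± 0.898), FLT4 (2.53 ± 0.780), APLN (4.64 ± 0.490) and APLNR (1.59 ± 0.451) also rose more in members. GATA2 had 46.3 CPM in 7ss members against 25.7 CPM at HH5, while other barcodes had 6.24 CPM against 49.7 CPM, so that the classes moved in opposite directions. Of 8 notochord and prechordal markers 7 fell more in members, among them CHRD (-4.41 ± 0.201), NOG (-3.46 ± 0.709) and FOXA2 (-3.10 ± 0.530). For the crest factors MSX1 (-2.65 ± 0.266) and SOX9 (-2.71 ± 0.709) the stage change was also lower in members than in other barcodes. MSX1 had 58.3 CPM in 7ss members against 119 CPM at HH5, while other barcodes had 374 CPM against 113 CPM. The 7ss replicate 2 library weighed here as well: without it 168 genes were called, and without 7ss replicate 1 195.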

How the data were processed

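The deposited values are raw UMI counts per gene and barcode, which the authors made with Cell Ranger (6.1.1 in the file headers of 8 libraries and 5.0.0 for HH11) on GRCg6a, a chicken genome build, using their own annotation in which 3' ends were extended. The paper's methods name a further release, and Seurat 4 stands in the submitters' processing notes. The counts hold doublets and free RNA as captured, and 0 columns of other samples were met.

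Members were picked by the rule, and UMIs were summed per library and class. The test across genes was that of edgeR 4.0.16, run in R 4.3.3 with limma 3.58.1: TMM scaling, which equalises libraries on genes of average change, filterByExpr, the quasi-likelihood F test, 2-sided, Benjamini-Hochberg adjustment at 0.05. All adjusted p-values come from it. SE is the log2 change over the square root of F. Classes within a library were fitted with the library as a block, stages without a block. The genes of the rule were left out of the tests. Stages were compared over HH5 replicate 1 and the libraries of 1ss, 4ss and 7ss. Fits were tested on simulated data. CPM carry no TMM factors. A gene at 0 UMIs was set to a floor of 3 UMIs over the group. Intervals are exact (Clopper-Pearson, 95%) and cover counting error only.

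Clusters used 2000 variable genes outside the rule, 15 principal components, 20 neighbours and Leiden at resolution 0.5 (scanpy 1.11.5). Doublets were scored against simulated ones at 0.8% per 1000 barcodes. Named genes were the 12 largest rises and 8 largest falls among called genes of at least 20 CPM and of 1 direction in every library, for stages the 8 largest of each direction, and up to 4 called members per list. Members, the 20 gene lists and these rules were chosen with earlier results of these data known. Alternatives covered scaling, the low-count filter, DESeq2 1.42.0, free RNA, doublets, depth, markers required, comparator and left-out libraries.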

Additional observations from a re-analysis of the deposited data

Results flagged for a closer look

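Between HH5 and 7ss, 16 named genes changed differently in members than in the other barcodes of the same libraries by edgeR's quasi-likelihood test. HH5 is 1 library of 48 members, rich in notochord genes, and its part in these values was not tested. For genes at 0 UMIs in 1 stage of members the bound against 3 UMIs is given, which concerns members alone.

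Rising in members were RASGRP3 (at least 19.5-fold higher in 7ss members, 0 UMIs at HH5), CD248, a pericyte and mesenchyme antigen (at least 7.00-fold), the repressor HIC1 (at least 3.28-fold), MRC1 (at least 8.92-fold), TMEM26 (at least 7.48-fold) and GRAPL (at least 4.80-fold). Other barcodes stayed between 0.332 and 3.98 CPM for these 6 genes at both stages. CA2 differed by 8.62 on the log2 scale, with 675 CPM in 7ss members against 23.4 CPM at HH5, while other barcodes had 5.88 CPM against 74.7 CPM. MT4 differed by 6.04, with 4354 CPM in 7ss members against 173 CPM at HH5, while other barcodes had 68.6 CPM against 167 CPM.

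Falling in members relative to the other barcodes were NEFL (at least 36.1-fold lower in 7ss members, 0 UMIs against 13 at HH5), CXCL14 (-6.09), the notochord factor NOTO (-5.19), the signal SHH (-4.97), DDC (-4.81), SYNDIG1 (-4.70), the ligand WNT4 (-4.54) and GBE (-4.50), each on the log2 scale. WNT4 had 48.3 CPM in 7ss members against 37.4 CPM at HH5, while other barcodes had 370 CPM against 11.5 CPM, so that the classes differed by the level of the other barcodes at 7ss. HH5 values of these 8 genes rest on 9 to 18 UMIs in members.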

How the results depend on the processing

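Between members and other barcodes, 3169 genes became 2393 (without 7ss replicate 2) to 3310 when 1 library was left out, 865 with the HH5 and 1ss libraries alone and 1113 without the library block. Against mesoderm-gated barcodes 1356 became 849 to 1455 with 1 library left out, 2057 and 2210 with at least 3 and 4 markers, 217 with HH5 and 1ss alone, 203 without the library block and 2197 without a low-count filter. Against HH5, the 2 calls at 1ss became 0 to 111 with 1 library left out, 5 with DESeq2, 0 with library size scaling, 73 without the low-count filter and 1 without doublets, barcodes over 4000 genes or over 40% mitochondrial UMIs. The 64 calls at 4ss became 27 to 213, 42 (DESeq2), 170 (no low-count filter) and 32 (without these barcodes). The 231 calls at 7ss became 52 to 630, 112, 463 and 135 under the same settings. The difference between classes in stage change went to 168 to 373 genes with 1 library left out and 98 with DESeq2, against 336. With the replicate number as a block, the 1ss, 4ss and 7ss contrasts called 73, 121 and 313 genes. Same-numbered libraries deviated with correlations of 0.0016, 0.0014 and 0.014, so the numbers were not taken as pairs. The stage contrasts with at least 3 or 4 markers could not be fitted. The mean share of members, thinned to 1000 UMIs, was 0.0458%, 0.177%, 0.862%, 1.03% and 1.10% from HH5 to HH11. It became 0.223%, 0.469%, 1.23%, 1.53% and 1.95% without thinning. Thinning to 2000 UMIs gave 0.0730%, 0.352%, 1.23%, 1.34% and 1.63% from HH5 to HH11, and at least 3 markers gave 0%, 0.0208%, 0.320%, 0.433% and 0.550%. Without doublets and the other barcodes named above, HH5 stood at 0.0146% and 7ss at 1.08%. Resolution 0.2 gave 4 clusters in place of 9. Of the values of single genes under alternatives, 3790 kept direction and call, 469 kept direction and lost the call, and 8 changed sign. Those were NCK1 (-0.0080), STAB1 (-1.36), CA2 (-0.97), MSX1 (0.24) and LCAT (-0.20) against other barcodes with HH5 and 1ss alone, TBXT (-0.33 and -0.30) with at least 3 and 4 markers, and BMP4 (0.83) against mesoderm-gated barcodes with HH5 and 1ss alone. Apart from smaller sets of libraries or genes, which fit with fewer data, the cause of these changes was not tested. Early depth limits what can be seen, since 3 UMIs are 7.02 CPM in the HH5 members.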
